A study of Saccharomyces cerevisiae with 6 samples.

Results

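The 10 genes described here encode enzymes that make and break down trehalose and glycogen, the storage carbohydrates of budding yeast (Saccharomyces cerevisiae). They were chosen by systematic name. All 10 were found among the 6692 gene rows of each library, 5 for trehalose (TPS1, TPS2, TPS3, TSL1 and NTH1) and 5 for glycogen (GSY1, GSY2, GPH1, GDB1 and GLC3). The 3 Rio1-depleted libraries came from a W303 strain that carries RIO1-AID and PADH1-OsTIR1, after 1 h with 500 µM auxin. Its mating type is MATa and its marker alleles are ura3-1, leu2-3,112, his3-11,15, trp1-1, can1-100 and ade2-1. The 3 control libraries came from the same genotype without auxin, although their titles call them wild type. In both groups the RIO1 gene, which encodes an essential kinase of ribosome maturation, is fused to a degron, and the ADH1 promoter drives the plant protein OsTIR1, which targets the fusion for destruction when auxin is present. All cultures grew exponentially in YPD, a rich glucose medium, at 23 °C, and RNA depleted of rRNA was sequenced. No group had auxin with an intact Rio1, so an effect of auxin itself and an effect of Rio1 loss cannot be told apart. The labels do not say whether replicates are separate cultures. If they are not, the p-values cover technical spread only.

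Trehalose is a disaccharide that protects membranes and proteins under stress, and glycogen is a branched glucose polymer held as a reserve. In yeast both are made from UDP-glucose. Tps1 and Tps2 make trehalose in a complex with Tps3 and Tsl1, and Nth1 splits it. Gsy1 and Gsy2 extend glycogen chains and Glc3 branches them, whereas Gph1 and Gdb1 release glucose units from the chains and the branch points. Yeast in ample glucose keeps both reserves low, and fills them as glucose runs out or under stress. Many of the genes carry stress response elements (CCCCT on either strand), the sites read by the activators Msn2 and Msn4.

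Gene counts per library ran from 683896 to 1671136, so that before scaling 1 read was worth 0.598 to 1.46 CPM (a gene's counts over the library's gene counts, scaled to the usual common total). The share of reads in rDNA reading frames was 4.12% for depleted library 2, 1.48% for control library 1 and 0.059% to 0.197% elsewhere. These frames were taken as all genes whose systematic names start with YLR154, so a gene outside the rDNA may be among them. Libraries of the same group differed by more than sampling noise (chi-square of 2.53 to 10.7 per degree of freedom). These values rest on library totals and include the rDNA reading frames, whose part in them was not measured. The cells matched the MATa label. The 6 markers of MATa cells summed to 1219 to 1454 CPM in depleted and 1212 to 1391 CPM in control libraries, against 45.3 to 51.3 CPM in depleted and 21.4 to 37.2 CPM in control libraries for 4 MATalpha markers, which include the alpha pheromone gene MF(ALPHA)1 with 1 read in 1 library. None of these 10 markers was at 0 in every library. The MATalpha list is mostly SAG1, the alpha-agglutinin gene, which was higher in depleted cells (log2 fold change 0.83, edgeR adjusted p = 0.0395), and its part in the results below was not tested. Of the MATa markers 1 was called, BAR1, which was lower. MFA1, also a MATa marker, was low, at 3.89 to 7.89 CPM in depleted and 2.86 to 10.7 CPM in control libraries, and was not tested. The 4 haploid markers summed to 299.6 to 363 CPM in depleted and 289 to 342 CPM in control libraries, with 0 called. Markers of sporulating cells summed to 35.0 to 59.2 CPM in depleted and 40.8 to 46.9 CPM in control libraries, and the 1 of these 4 that was tested, NDT80, rose (log2 fold change 0.98). Of the 3 not tested, SPO11 overlapped between the groups, and both others lay lower in every depleted library. IME1 had 0.871 to 3.89 CPM in depleted and 4.29 to 10.6 CPM in control libraries, and SPS4 had 1.3 to 3.48 CPM in depleted and 5.35 to 11.4 CPM in control libraries.

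Rio1-depleted cells held more GDB1 mRNA, and the 5 glycogen genes had a higher median fold change than the 5 trehalose genes. Relative to TMM scaling (which equalises most genes between libraries), 2 of the 10 genes rose, 1 fell and 7 did not pass the test, where a gene passes at an edgeR adjusted p under 0.05. Across all 5195 tested genes 14.1% rose and 14.1% fell, so neither count stands far from the background. The 2 that rose, GDB1 and GPH1, encode the enzymes among the 10 that release glucose units from glycogen. GPH1 was called in only 2 of the 6 fits that left out 1 library. The one that fell, TPS2, did so by a small margin, and no other trehalose gene passed. The median log2 fold change was 0.70 for the glycogen genes and 0.15 for the trehalose genes, against 0.01 for all tested genes. The glycogen median is the value of GSY1, which did not pass and had 9 to 25 reads per library. All 10 genes passed the filter on low counts, none overlaps another annotated gene in the R64 annotation, and changes are relative to the rest of the RNA. In bulk RNA, fewer cells expressing a gene and less RNA per cell cannot be told apart.

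The regions upstream of 3 of the genes are shown because GDB1 and GPH1 rose, while TPS1, with the most stress response elements of the 10, did not pass the test. The sequences are from the S288C reference (R64, RefSeq, the assembly also called sacCer3) and not from W303. Each is given 5′ to 3′ on the strand of the gene, with capitals for CCCCT or its reverse complement AGGGG, and none lies in an annotated gene. GDB1 is shown from 300 to 151 bases before its start codon (chrXVI:901744-901893, + strand), GPH1 from 400 to 251 (chrXVI:860906-861055, + strand) and TPS1 from 400 to 201 (chrII:490593-490792, - strand).
GDB1: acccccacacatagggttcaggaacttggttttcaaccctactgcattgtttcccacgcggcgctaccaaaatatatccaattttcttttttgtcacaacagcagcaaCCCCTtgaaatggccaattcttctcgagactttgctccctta
GPH1: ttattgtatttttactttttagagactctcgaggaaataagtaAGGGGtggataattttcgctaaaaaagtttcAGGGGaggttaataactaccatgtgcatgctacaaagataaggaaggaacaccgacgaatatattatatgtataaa
TPS1: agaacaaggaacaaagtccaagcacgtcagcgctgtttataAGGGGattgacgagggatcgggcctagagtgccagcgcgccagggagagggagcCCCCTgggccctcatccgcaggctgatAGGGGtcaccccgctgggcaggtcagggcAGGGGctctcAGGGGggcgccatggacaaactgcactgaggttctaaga

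All 10 genes had at least 1 such element in the 500 bases before the start codon, and 9 had at least 2. Of 6000 windows of that length before nuclear protein-coding genes, 34.1% held at least 1 and 8.13% at least 2. Whether the number of elements goes with the fold change was not tested. TPS1 had 6, TSL1 had 5 and TPS2 had 4, at log2 fold changes of 0.33, 0.40 and -0.40. TPS1 and TSL1 were not called, and TPS2 was called lower. GLC3 and NTH1 had 3 each, at log2 fold changes of 0.30 and 0.15. GSY1, GSY2 and TPS3 had 2 each, at 0.70, 0.51 and -0.14. GPH1 also had 2, at 1.05, and GDB1, with the largest rise, had 1, at 1.49. Heat shock elements were searched as GAANNTTC or TTCNNGAA, each of which reads the same on both strands. TSL1 had 3, while TPS1, GDB1 and GLC3 had 1 each, against 35.2% of all windows with at least 1. These matches describe letters in a window and not bound sites.

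GDB1 (YPR184W, chromosome XVI, 902044 to 906654), the glycogen debranching enzyme, had 98.6, 101 and 97.6 CPM in depleted libraries 1 to 3, against 47.2, 23.0 and 38.1 CPM in control libraries 1 to 3. The depleted libraries lay close together and every one lay above every control library. This is a 2.81-fold rise, at a log2 fold change of 1.49 ± 0.21 (SE, n = 3 per group; 95% interval 1.04 to 1.94; edgeR adjusted p = 2.64e-05). Of the 5195 tested genes, 107 had a larger log2 fold change. GDB1 was called in each of the 16 alternative fits run, with log2 fold changes from 1.23 to 1.81.

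GPH1 (YPR160W, chromosome XVI, 861306 to 864014), glycogen phosphorylase, had 36.3, 29.6 and 34.5 CPM in depleted libraries, against 27.2, 10.6 and 14.0 CPM in control libraries. The groups did not overlap, with control library 1 close below the lowest depleted library. These values rest on 28 to 35 reads in depleted and 12 to 21 reads in control libraries. The rise was 2.06-fold, at 1.05 ± 0.32 on the log2 scale (SE, n = 3 per group; edgeR adjusted p = 0.0203). The call was lost without depleted library 1 (adjusted p = 0.0518), depleted library 3 (0.0528), control library 2 (0.123) or control library 3 (0.107), with log2 fold changes of 0.98, 1.01, 0.78 and 0.90.

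The other glycogen genes did not pass the test. GSY2 (YLR258W, chromosome XII, 660716 to 662833), the more abundant of the glycogen synthase genes, had 64.8, 54.8 and 59.2 CPM in depleted libraries, against 30.0, 33.6 and 56.2 CPM in control libraries. Control library 3 alone reached into the depleted range. Its log2 fold change of 0.51 ± 0.24 (SE, n = 3 per group; edgeR adjusted p = 0.122) became 0.87 without control library 3, where the gene was called (adjusted p = 0.0222).

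GSY1 (YFR015C, chromosome VI, 174265 to 176391), the other glycogen synthase gene, had 18.2, 19.2 and 24.7 CPM in depleted libraries, against 12.9, 14.2 and 11.4 CPM in control libraries. The groups did not overlap, at only 9 to 25 reads per library. GSY1 had a log2 fold change of 0.70 ± 0.32 (SE, n = 3 per group; edgeR adjusted p = 0.115), with a 95% interval of 0.03 to 1.38. GLC3 (YEL011W, chromosome V, 133120 to 135234), the branching enzyme gene, had 19.5, 20.0 and 31.6 CPM in depleted libraries, against 18.6, 14.2 and 24.1 CPM in control libraries. The groups overlapped, the log2 fold change was 0.30 ± 0.32 (edgeR adjusted p = 0.527), and a difference between -0.37 and 0.97 lay within its 95% interval. It was 0.03 without depleted library 3, 0.10 without control library 2 and 0.55 without control library 3.

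**Figure D1:**
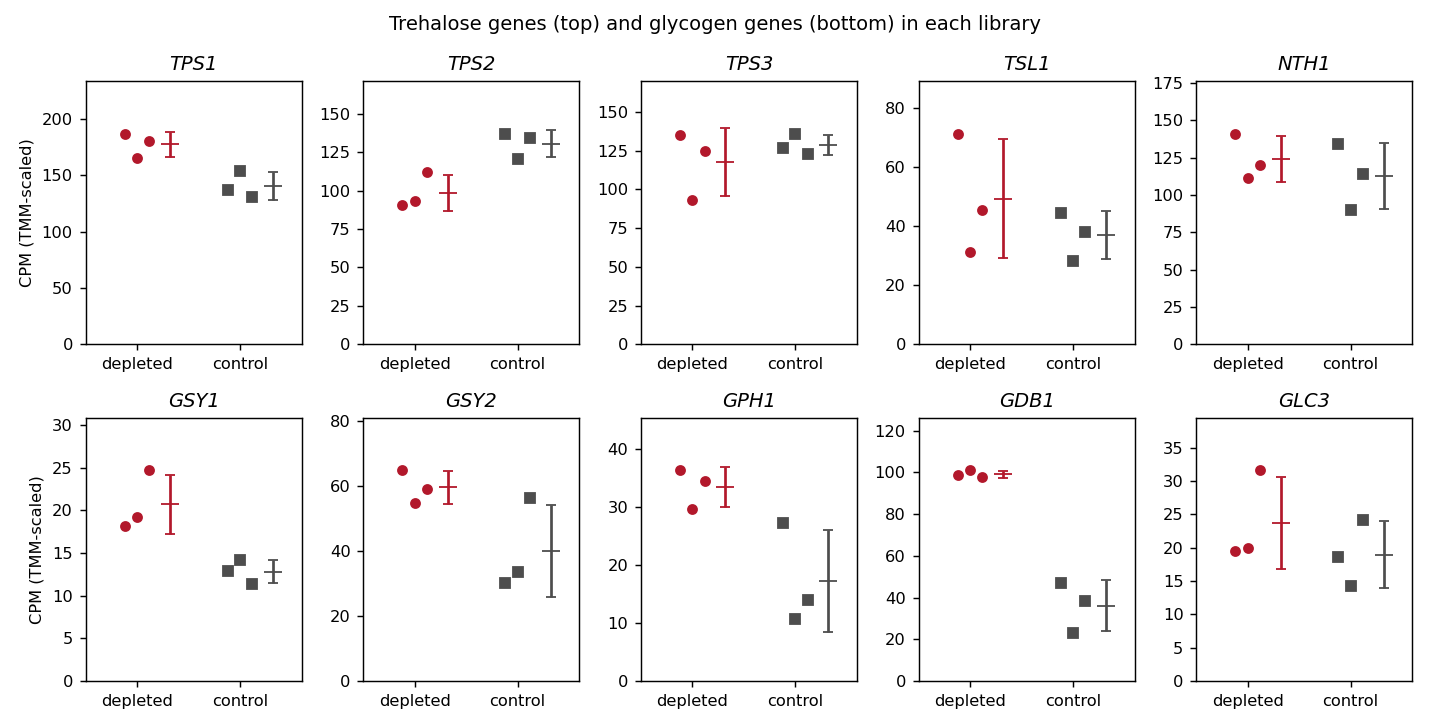
TMM-scaled CPM of each gene in the 3 depleted (circles) and 3 control (squares) libraries, with the mean and SD beside the points and the y axis from 0. All 3 depleted libraries lie above the control libraries for TPS1, GSY1, GPH1 and GDB1 and below them for TPS2, and the groups overlap for the other 5 genes.

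Among the trehalose genes, TPS1 (YBR126C, chromosome II, 488905 to 490392), trehalose-6-phosphate synthase, had 187, 165 and 180.5 CPM in depleted libraries, against 137, 154 and 130.4 CPM in control libraries. The groups did not overlap, but the log2 fold change of 0.33 ± 0.13 (SE, n = 3 per group) did not pass (edgeR adjusted p = 0.0597). It was called when only genes with a mean of at least 50 counts were tested (adjusted p = 0.0322), without depleted library 2 (0.044) and with library totals only (0.000702). TPS2 (YDR074W, chromosome IV, 593893 to 596583), trehalose-6-phosphate phosphatase, had 90.8, 93.1 and 112 CPM in depleted libraries, against 137, 120.3 and 134 CPM in control libraries. Every depleted library lay below every control library.

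TPS2 fell by 0.40 ± 0.15 on the log2 scale (SE, n = 3 per group, 1.32-fold), at an edgeR adjusted p of 0.0498, just under the threshold. The call stood in 5 of 16 alternative fits, and leaving out any library other than depleted library 3 ended it, with adjusted p from 0.0537 to 0.136. DESeq2, with an adjusted p of 0.124, and limma-voom, with 0.052, did not call it either. TPS1 and TPS2 catalyse successive steps, and their fold changes had opposite signs under every scaling tried.

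TPS3 (YMR261C, chromosome XIII, 790205 to 793369) and TSL1 (YML100W, chromosome XIII, 70624 to 73920) encode the regulatory subunits of the complex. TPS3 had 135, 93.1 and 125 CPM in depleted libraries, against 127, 136 and 123 CPM in control libraries. Its groups overlapped, with a log2 fold change of -0.14 ± 0.15 (edgeR adjusted p = 0.533) that turned to 0.17 with library totals only and to 0.01 without depleted library 2. TSL1 had 71.3, 31.3 and 45.4 CPM in depleted libraries, against 44.3, 28.3 and 38.1 CPM in control libraries. Depleted library 1 stood apart from the rest, and the log2 fold change of 0.40 ± 0.28 (edgeR adjusted p = 0.328) was 0.06 without it.

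NTH1 (YDR001C, chromosome IV, 450220 to 452475), the neutral trehalase, had 141, 111 and 120.3 CPM in depleted libraries, against 134, 90.2 and 114 CPM in control libraries. The groups overlapped, with a log2 fold change of 0.15 ± 0.16 (SE, n = 3 per group, edgeR adjusted p = 0.534) that was -0.01 without control library 2. The 95% interval ran from -0.19 to 0.49. In all, the groups did not overlap for 5 of the 10 genes, 4 higher and 1 lower in depleted cells, where 20.6% of tested genes were higher and 20.0% lower without overlap.

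**Figure D2:**
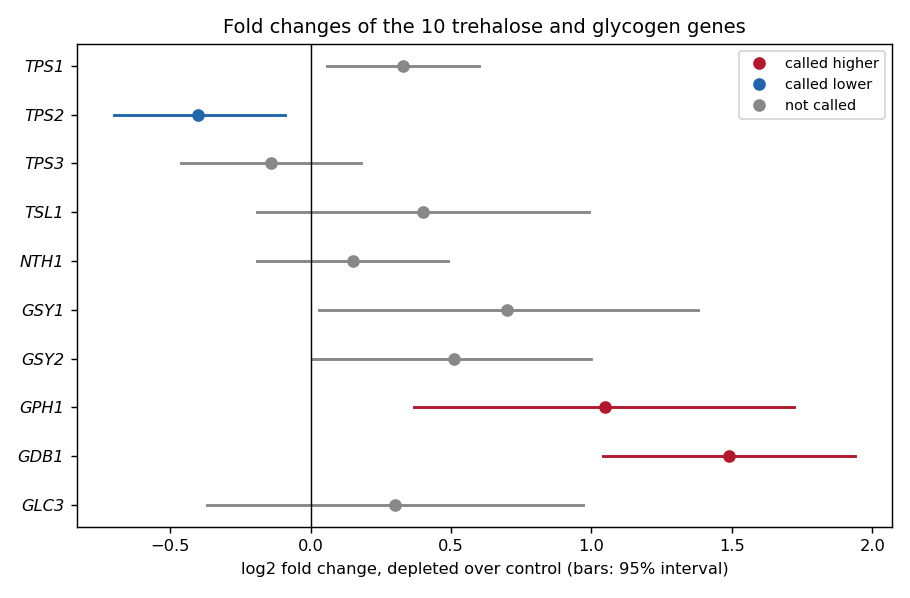
Log2 fold changes of the 10 genes, depleted over control (points), with 95% intervals (bars) and colours for the edgeR call. GDB1 at 1.49 and GPH1 at 1.05 were called higher and TPS2 at -0.40 lower, and all 5 glycogen genes lie above 0.

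Scaled for gene length, the order of the genes shifted around GDB1. TPS1 was the most abundant in both groups, at 119 ± 7.69 CPM per kb in depleted and 94.4 ± 8.12 CPM per kb in control libraries (SD, n = 3 each), and its range overlapped that of no other member. NTH1, TPS2, TPS3 and GSY2 held places 2 to 5 in both groups, and GSY2 stood at 28.1 ± 2.37 CPM per kb in depleted and 18.9 ± 6.69 CPM per kb in control libraries. GDB1 was 6th of 10 in depleted libraries, at 21.5 ± 0.376 CPM per kb, and 8th in control libraries, at 7.83 ± 2.65 CPM per kb. GSY1 was last in both, at 9.71 ± 1.65 CPM per kb in depleted and 6.02 ± 0.655 CPM per kb in control libraries. Between neighbours, ranges overlapped for TPS3 and TPS2 and from GDB1 downward in depleted libraries. In control libraries they overlapped for NTH1 and TPS2 and from TSL1 downward.

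Summed, the glycogen genes took 0.0268%, 0.0246% and 0.0278% of the gene counts in depleted libraries 1 to 3, against 0.0120%, 0.00868% and 0.0129% in control libraries 1 to 3. The groups were far apart, with a ratio of means of 2.36 (exact two-sided permutation p = 0.1, the smallest that 3 against 3 allows). GDB1 alone gave 76, 116 and 99 of the 183, 258 and 251 glycogen reads in depleted libraries 1 to 3. In control libraries 1 to 3 it gave 33, 26 and 57 of 95, 108 and 215. Sums without GDB1 were not formed. The trehalose genes took 0.0705%, 0.0541% and 0.0655% in depleted libraries, against 0.0515%, 0.0480% and 0.0483% in control libraries, a ratio of 1.29 (exact permutation p = 0.1). Shares rest on library totals, under which the median gene was 0.32 higher in depleted cells on the log2 scale, and on that scale the trehalose ratio was 0.36 and the glycogen ratio 1.24. Read as a quotient, which no library scaling can alter, glycogen counts over trehalose counts came to 0.380, 0.455 and 0.424 in depleted libraries and to 0.234, 0.181 and 0.266 in control libraries. This quotient was formed after the values were seen and is given without a test.

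**Figure D3:**
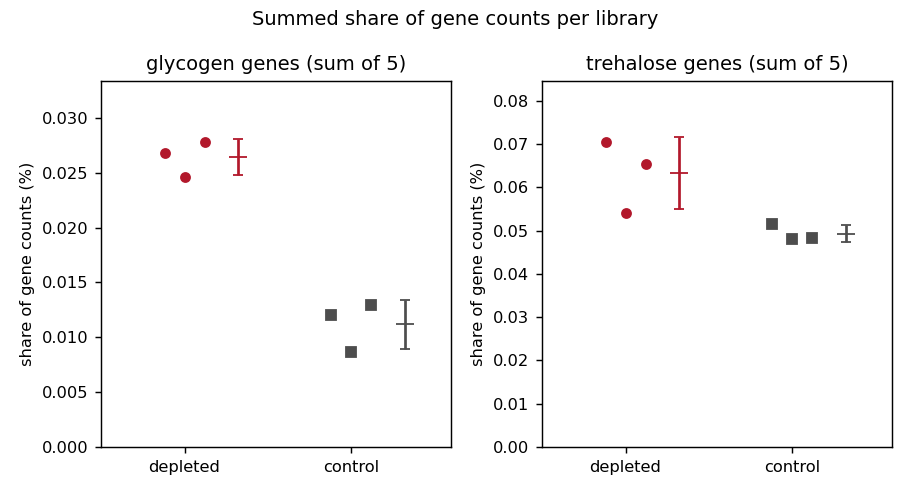
Share of the gene counts (in percent) taken by the 5 glycogen genes and the 5 trehalose genes in each depleted (circles) and control (squares) library, with mean and SD, and y axes from 0. The glycogen share averaged 0.0264% in depleted and 0.0112% in control libraries, and the trehalose share 0.0634% in depleted and 0.0493% in control libraries.

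Within pairs of related genes, log2 count ratios were compared, which also do not depend on library scaling. Of 7 pairs, 1 had groups that did not overlap. That was GLG2 over GLG1, the glycogenin genes that prime glycogen synthesis, at -0.89, -0.74 and -0.54 in depleted libraries, against 0.71, 0.60 and 0.04 in control libraries. The difference was -1.17 (exact two-sided permutation p = 0.1, the smallest possible, and 0.467 after Benjamini-Hochberg adjustment over the 7 pairs). GLG2 had 10 to 16 reads in depleted and 20 to 34 reads in control libraries, and by itself did not pass (log2 fold change -0.80, edgeR adjusted p = 0.06).

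In the other pairs the groups overlapped. The exact permutation tests cannot go below p = 0.1, so they could not have passed 0.05 and do not show that a difference is absent. The TSL1 over TPS3 ratio differed by 0.50 between the groups (exact permutation p = 0.2) and that of GSY2 over GSY1 by -0.04 (exact permutation p = 1). The longest run of identical coding bases is 33 between NTH2 and NTH1, 20 between GSY2 and GSY1 and 15 between TSL1 and TPS3. NTH2 over NTH1, the trehalase paralogs, differed by 0.16 (exact permutation p = 0.6), and PGM2 over PGM1, the phosphoglucomutases, by 0.42 (exact permutation p = 0.2). Synthesis set against breakdown differed by 0.18 for TPS1 over NTH1 (exact permutation p = 0.5) and by -0.42 for GSY2 over GPH1 (exact permutation p = 0.4). Leaving out 1 library moved the difference to between 0.03 and 0.40 for TPS1 over NTH1, -0.97 and -0.06 for GSY2 over GPH1, 0.00 and 0.42 for NTH2 over NTH1, 0.28 and 0.61 for PGM2 over PGM1, 0.29 and 0.66 for TSL1 over TPS3, and -0.23 and 0.31 for GSY2 over GSY1. For GLG2 over GLG1 it stayed between -1.38 and -1.04. The control values of GSY2 over GPH1 spread from 0.14 to 1.97, against 0.77 to 0.88 in depleted libraries.

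Of 20 regulators of the 2 pathways 19 were tested, and 4 rose, 1 fell and 14 did not pass. Of all 5195 tested genes, 14.1% rose and 14.1% fell. GIP2 (YER054C, chromosome V, 262052 to 263698), a putative targeting subunit of the protein phosphatase Glc7, had 29.8, 35.7 and 26.6 CPM in depleted libraries, against 11.4, 7.96 and 3.34 CPM in control libraries. No depleted library came near a control library. The rise was 4.49-fold, at 2.17 ± 0.38 on the log2 scale (SE, n = 3 per group; edgeR adjusted p = 0.000271), and it was called in all 15 alternative fits that tested it. GAC1, the subunit that directs Glc7 to glycogen synthase, had 22.0, 29.6 and 33.5 CPM in depleted libraries, against 11.4, 16.8 and 13.4 CPM in control libraries (2.03-fold, edgeR adjusted p = 0.0174). GAC1 was called in 10 of 15 alternative fits, and leaving out depleted library 2, depleted library 3, control library 1 or control library 3 ended the call.

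Of the same family of subunits, PIG1 had a log2 fold change of 0.74 (edgeR adjusted p = 0.0628) and PIG2 of -0.23 (adjusted p = 0.662). GLC7 itself stood at 276 to 320.5 CPM in depleted and 316 to 320.3 CPM in control libraries, with a log2 fold change of -0.08 and a 95% interval of -0.29 to 0.13. PCL7, a cyclin of the kinase Pho85, had 20.7, 15.7 and 26.6 CPM in depleted libraries, against 35.8, 40.7 and 46.8 CPM in control libraries. Its groups did not overlap, and it fell 2-fold, with a 95% interval of -1.56 to -0.43 on the log2 scale (n = 3 per group, edgeR adjusted p = 0.00927). The fall was not called without depleted library 2, without control library 3 or with library totals only. PHO85 and the other cyclins PCL6, PCL8 and PCL10 did not pass, with log2 fold changes of 0.19, 0.04, -0.18 and 0.04.

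DCS2, a stress-induced relative of the decapping scavenger gene DCS1, had 25.9, 16.5 and 27.6 CPM in depleted libraries, against 7.15, 9.73 and 13.4 CPM in control libraries (2.15-fold, edgeR adjusted p = 0.0241). It was not called by DESeq2, or without depleted library 1, depleted library 3, control library 1 or control library 2. BMH2, a 14-3-3 protein gene whose product helps to activate Nth1, had 466, 507 and 550.3 CPM in depleted libraries, against 396, 359 and 356 CPM in control libraries (1.37-fold, edgeR adjusted p = 0.00448). Its more abundant partner BMH1 had 858 to 1147 CPM in depleted and 984 to 1104 CPM in control libraries (log2 fold change -0.04, edgeR adjusted p = 0.838). IGD1, an inhibitor of Gdb1, had only 1 to 5 reads in depleted and 2 to 9 reads in control libraries and was not tested.

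Of 12 further enzymes that feed or share the pathways 11 were tested, and none rose, 2 fell and 9 did not pass. The share over all 5195 tested genes was 14.1% for a rise and 14.1% for a fall. UGP1, which makes the UDP-glucose used by both, had 281, 231 and 240 CPM in depleted libraries, against 302, 348 and 339 CPM in control libraries. It fell by 0.41 ± 0.11 on the log2 scale (SE, n = 3 per group, edgeR adjusted p = 0.00905), a call lost without depleted library 2 and with library totals only. HXK2, the main hexokinase in glucose, had 737, 751 and 683 CPM in depleted libraries, against 941, 923 and 944 CPM in control libraries, and fell by 0.37 ± 0.11 (edgeR adjusted p = 0.019). That call was lost without control library 2 or 3, and the log2 fold change was -0.06 with library totals only. SGA1, a glucoamylase of sporulating cells, had 5 to 10 reads in depleted and 1 to 8 reads in control libraries and was not tested. The median log2 fold change was 0.12 for the regulators tested and -0.08 for the further enzymes.

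**Figure D4:**
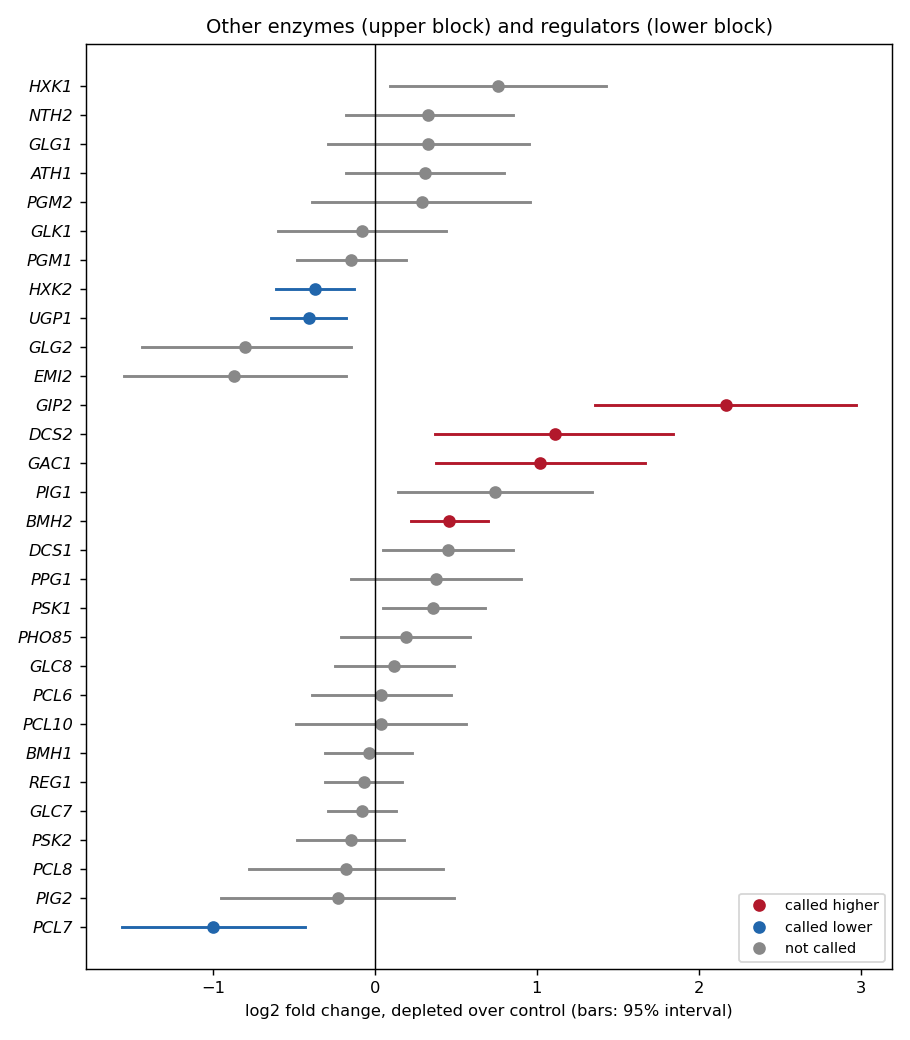
Log2 fold changes, depleted over control, of the 11 tested further enzymes (upper block) and 19 tested regulators (lower block), with 95% intervals and colours for the edgeR call. GIP2 at 2.17 lies farthest to the right, and PCL7 is the only regulator called lower.

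The 3 genes outside these lists whose library profiles were most like that of GDB1 were found by the distance between log2 CPM values centred per gene over the 6 libraries. GLO4, a mitochondrial glyoxalase gene, was nearest at 0.34, followed by YOR019W at 0.41 and PBA1, a proteasome assembly chaperone gene, at 0.53, where the median over 5155 genes was 2.05. GLO4 had 118, 119 and 113 CPM in depleted libraries, against 44.3, 30.1 and 44.8 CPM in control libraries. With 2 groups, such likeness mostly reflects a similar difference between them.

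**Figure D5:**
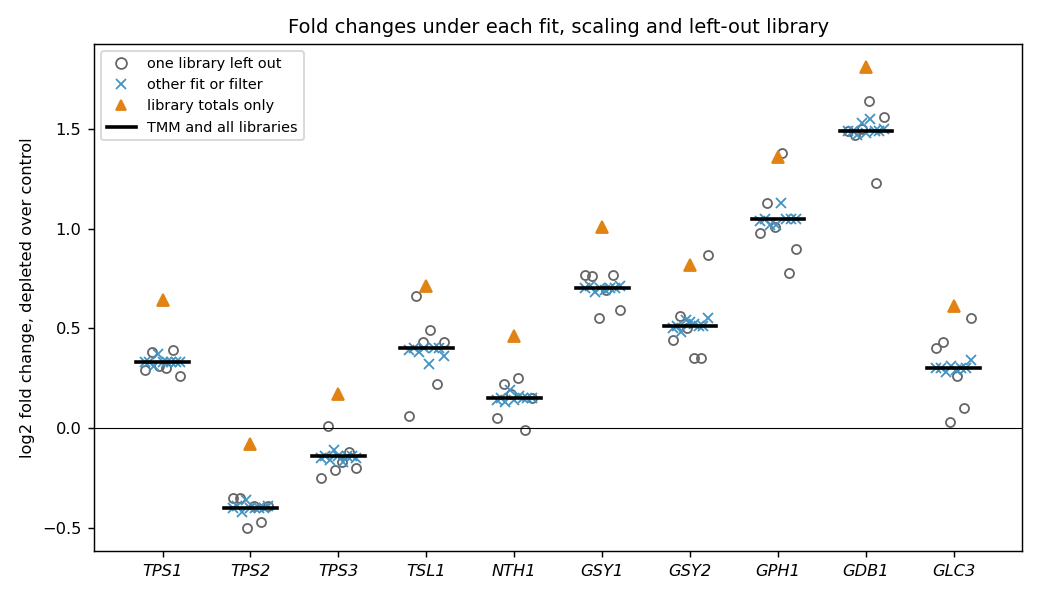
Log2 fold change of each gene, depleted over control, under TMM scaling with all libraries (black bars), with 1 library left out (open circles), with library totals only (triangles) and in the other fits (crosses). GDB1 stays between 1.23 and 1.81, and library totals lie above the black bar for every gene.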

How the data were processed

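The values deposited by the authors are unnormalized gene counts in 1 table per library, and the 5 summary rows of HTSeq that end each table were left out of library sizes. The submitters' processing notes list the build sacCer3 and the tools TopHat2 2.0.8, HTSeq and DESeq. Settings, strandedness and annotation: not given in the sources used here. Per the labels' protocols, ScriptSeq v2 libraries were made from RNA depleted of rRNA. Reads with more than 1 alignment (45.2% to 65.9% of the entries of a file) and ambiguous reads (0.81% to 1.46%) are not in the gene counts, which lowers genes with near-identical copies. Symbols and coordinates came from the RefSeq table of R64, which matched 6008 of 6692 identifiers.

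Counts were fitted in edgeR 4.0.16 (R 4.3.3) with TMM scaling, filterByExpr (minimum count 10, minimum total 15), glmQLFit and glmQLFTest, and p-values were adjusted by Benjamini-Hochberg over 5195 tested genes. Standard errors are the log2 fold change over the square root of F, and CPM use TMM-scaled library sizes. On simulated counts with 200 of 5195 genes changed 2-fold, all with over 20 expected reads, 86% were recovered, with 13 false calls, so recovery at fewer reads is not covered. Pair ratios had 0.5 added to each count. Alternatives were RLE and upper-quartile factors, library totals only, other count filters, DESeq2 1.42.0, limma-voom 3.58.1, a 1.5-fold threshold, removal of rDNA reading frames, a replicate block and leaving out each library. The members, lists and tests were chosen with earlier results of these data known. All 10 members were named, as were listed genes that were called, in a pair or most abundant; PIG1, PIG2, GLC7, PHO85, PCL6, PCL8, PCL10, IGD1 and SGA1 were named after their values were seen.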

Additional observations from a re-analysis of the deposited data

How the results depend on the processing

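Library totals in place of TMM moved the median of all genes up by 0.31 on the log2 scale. They gave 1748 genes higher and 313 lower (84.8% of calls higher, against 50.0%), 6 members higher and 0 lower, and 12 other pathway genes higher and 0 lower. TPS3 then turned to 0.17. Against a 1.5-fold change, 204 genes were higher and 190 lower, 1 member and 1 other pathway gene were higher, and 0 of either were lower. With a mean of at least 50 counts, which left 6 members tested, 0 members were lower and 1 other pathway gene was higher. Upper-quartile factors, DESeq2 and limma-voom each called 0 members lower. Leaving out 1 library gave 529 to 671 genes higher and 591 to 699 lower, 1 to 3 members higher and 0 to 1 lower, and 2 to 5 other pathway genes higher and 1 to 4 lower. In those fits TPS3 ranged from -0.25 to 0.01 (0.01 without depleted library 2), NTH1 from -0.01 (without control library 2) to 0.25, and the GSY2 over GSY1 difference from -0.23 to 0.31, above 0 without depleted library 3 or control library 3. RLE factors, no filter and removal of rDNA reading frames kept the counts within 1.5-fold. Replicate numbers showed no clear pairing of the libraries, which so few libraries cannot exclude. Correlations were -0.057, -0.001 and 0.077 between same-numbered libraries, against -0.082 to 0.067 between the others. A replicate block gave 741 genes higher and 756 lower, with 2 members higher and 1 lower. Low counts limit GSY1, GLC3 and GPH1 most, at 9 to 36 reads per library.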
